A study of Sus scrofa with 50 samples.

Results

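The RAB GTPases are small membrane switches that tell a vesicle where to go. They were read here as transcript levels in 50 single porcine embryos, 1 Smart-seq2 library per embryo, a method that copies whole polyadenylated transcripts from a very small input. Members were the genes whose symbol, paired with the file's NCBI Gene identifier, was RAB followed by a digit. Symbols of RAB interactors, activators and the prenylating enzyme were dropped, and a level over 0.5 CPM (a gene's reads scaled to the size of the library) in at least 1 embryo was required. Of 30321 identifiers, 17413 carried a symbol and 68 of these were RAB plus a digit. After 8 were dropped and 1 more (RAB4B) stayed at or under the minimum everywhere, 59 members were left. One of the 59, RAB3IL1, encodes an exchange factor that loads RAB proteins and is no GTPase, so counts below are over 58 genes.

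The in vivo developed embryos were flushed from hormonally synchronized German Landrace × Pietrian gilts on day 2 (4-cell, n = 5), day 4 (morula, n = 10) and day 6 (hatched blastocyst, n = 10) after insemination. The in vitro produced embryos came from abattoir oocytes that were matured with FGF2, LIF and IGF1, fertilized and cultured, and were taken at the same stages (4-cell, n = 5, morula, n = 10, and hatched blastocyst, n = 10). Stage and not age was matched, and the in vitro hatched blastocysts were over a day older, counted from fertilization, than the in vivo ones counted from insemination. Sperm of one Duroc boar was used for all groups. In vitro 4-cell embryos and morulae were taken from embryos preselected at the 2-cell stage, so they stand for well-cleaving embryos only, and sperm could still be attached to the zona of 4-cell embryos and morulae. Which gilt or which in vitro experiment an embryo came from is not given in the labels. Per the study, each group had more embryos than gilts or experiments, so some replicates shared one. Depth was counted as the reads assigned to genes that could be read back from the CPM values, not as all reads sequenced. It was 4.2 ± 1.29 M reads (SD, n = 49), from 1.44 to 7.71 M in these embryos, and 3 had under 2 M. In vivo 4-cell embryo B1 is not among the 49. Its values were whole multiples of 0.101 CPM too, but a rule set aside embryos whose CPM per read lay near a power of 10.

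The in vivo 4-cell libraries stood apart. They held 5702 to 12645 genes over 0.5 CPM (median 10016), against 14223 to 15611 in the in vitro 4-cell embryos and 10200 to 15905 in all later groups. A lower RNA quality was noted for them by the study. It reported RNA quality differences between the sources for morulae as well, and for that reason compared the sources only as hatched blastocysts. In vivo 4-cell embryo C1 was the poorest, with 5702 genes and a summed level of 3099 CPM over 14 maternal transcripts, while the other 4 lay between 9386 and 18231 CPM. All in vitro 4-cell embryos lay between 15910 and 21778 CPM on this list. The maternal sum was 14.4 to 47.5 CPM in in vivo morulae and 77.5 to 338 CPM in 9 of the in vitro morulae, while in vitro morula B2 held 2352 CPM. Trophectoderm markers summed to 4406 to 9472 CPM in in vivo and 3514 to 9332 CPM in in vitro hatched blastocysts. The cumulus list reached at most 100.04 CPM, the oviduct list 37.7, the blood list 33.2 and the sperm list 24.6 CPM in any embryo, with the sperm genes PRM1, ODF1 and SMCP at 0 in every group. The uterine list summed to 34.8 to 1107 CPM in in vivo and 74.3 to 441 CPM in in vitro hatched blastocysts.

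A RAB protein switches between a GTP-bound form, which sits on one kind of membrane and recruits motors, tethers and coats, and a GDP-bound form, which is drawn off into the cytosol. Exchange factors (GEFs) turn it on, GTPase-activating proteins (GAPs, mostly with a TBC domain) turn it off, escort and geranylgeranyl transferase proteins give it its lipid anchor, and GDI proteins recycle it. Through cleavage, compaction and cavitation the embryo forms its first epithelium, the trophectoderm, which sorts proteins to an apical and a basolateral face, and RAB11 family members are known from other epithelia as RABs of the recycling endosome.

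The mean of the summed level of the 58 genes was higher at each later stage in both sources, with little distance between 4-cell embryos and morulae in vitro. In vivo it was 1240 ± 387 CPM in 4-cell embryos (SD, n = 5), 3355 ± 479 CPM in morulae (n = 10) and 4281 ± 605 CPM in hatched blastocysts (n = 10). In vitro it was 2711 ± 612, 2828 ± 280 and 4667 ± 510 CPM. The in vivo 4-cell embryos (918 to 1860 CPM) lay below all in vivo morulae (2261 to 3947 CPM), whereas the in vitro 4-cell embryos (1805 to 3410 CPM) spanned the in vitro morulae (2498 to 3269 CPM). The in vivo morulae and hatched blastocysts (3187 to 5118 CPM) overlapped. No test was made on the sum. The number of RAB genes over 0.5 CPM was 29 ± 9.27 in in vivo 4-cell embryos, and between 44.1 and 47.3 on average in the other groups.

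**Figure D1:**
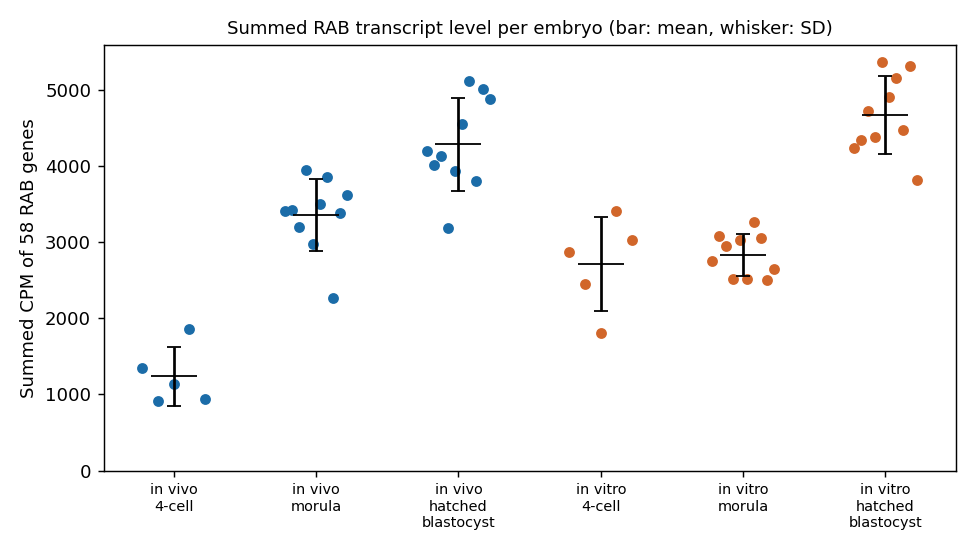
Summed CPM of 58 RAB genes (y axis, from 0) in each embryo (points) of the 6 groups of source and stage (x axis), with the group mean as a bar and the SD as a whisker. The in vivo 4-cell embryos lie between 918 and 1860 CPM, below every in vivo morula, while the in vitro 4-cell embryos and morulae overlap. The CPM total over all genes also differed between embryos and groups.

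Stages were compared within each source with limma on log2(CPM + 1). A gene was called where the p adjusted over all genes tested was under 0.001 and the log2 change was over 1 in size, the thresholds of the study. Changes are later minus earlier stage, and for low genes this scale understates the fold. Unless another tool or setting is named, called and not called refer to this limma test. Between 4-cell embryos and morulae in vivo, 13 of 56 tested RAB genes rose and 1 fell, beside 14.9% of all genes called higher and 7.86% called lower. The members that rose were RAB14, RAB1A, RAB21, RAB8A, RAB6A, RAB18, RAB25, RAB34, RAB28, RAB2A, RAB9A, RAB12 and RAB3D, and RAB3B fell. Their share called higher was 23.2%, and the median change over the tested members was 0.82, against 0.21 over all genes (0.86 with genes at 0 in a whole group set to their bound). The all-gene median depended on the setting. It was 0.79 with over 1 CPM in at least 3 embryos and 0.69 with 0.1 in place of 1 added to the CPM. No members' median is given for these settings. In vitro, 10 of 54 rose and 12 fell, beside 16.0% and 22.7% of all genes, and the median change was −0.29 against −0.14 over all genes. The risers were RAB5A, RAB38, RAB34, RAB18, RAB6A, RAB24, RAB42, RAB8A, RAB1A and RAB14, and RAB27A, RAB3C, RAB3B, RAB22A, RAB30, RAB4A, RAB15, RAB31, RAB39A, RAB29, RAB5B and RAB28 fell. The in vitro shares, 18.5% higher and 22.2% lower, stood close to those of all genes.

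From the morula to the hatched blastocyst fewer members moved. In vivo 2 of 54 rose (RAB1A and RAB8B) and 2 fell (RAB2B and RAB34), beside 5.81% and 3.14% of all genes. In vitro 8 of 56 rose (RAB25, RAB39A, RAB4A, RAB1A, RAB24, RAB7A, RAB8B and RAB11A) and 4 fell (RAB5A, RAB29, RAB34 and RAB7B), beside 9.98% and 10.2% of all genes. The median change over the members was 0.14 in vivo (0.01 over all genes) and 0.17 in vitro (−0.11 over all genes). Between hatched blastocysts, 1 of 54 members was higher in vivo (RAB6B) and 0 were lower (1 by edgeR and 2 by DESeq2), beside 2.20% and 2.07% of all genes. An unadjusted p under 0.05 was found for 24 members, a count for which the share of all genes is not given. Over these 5 comparisons 34 of the 58 genes were called at least once, RAB1A and RAB34 in 4 comparisons each, and 24 in none. The share of all genes called at least once is not given.

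**Figure D2:**
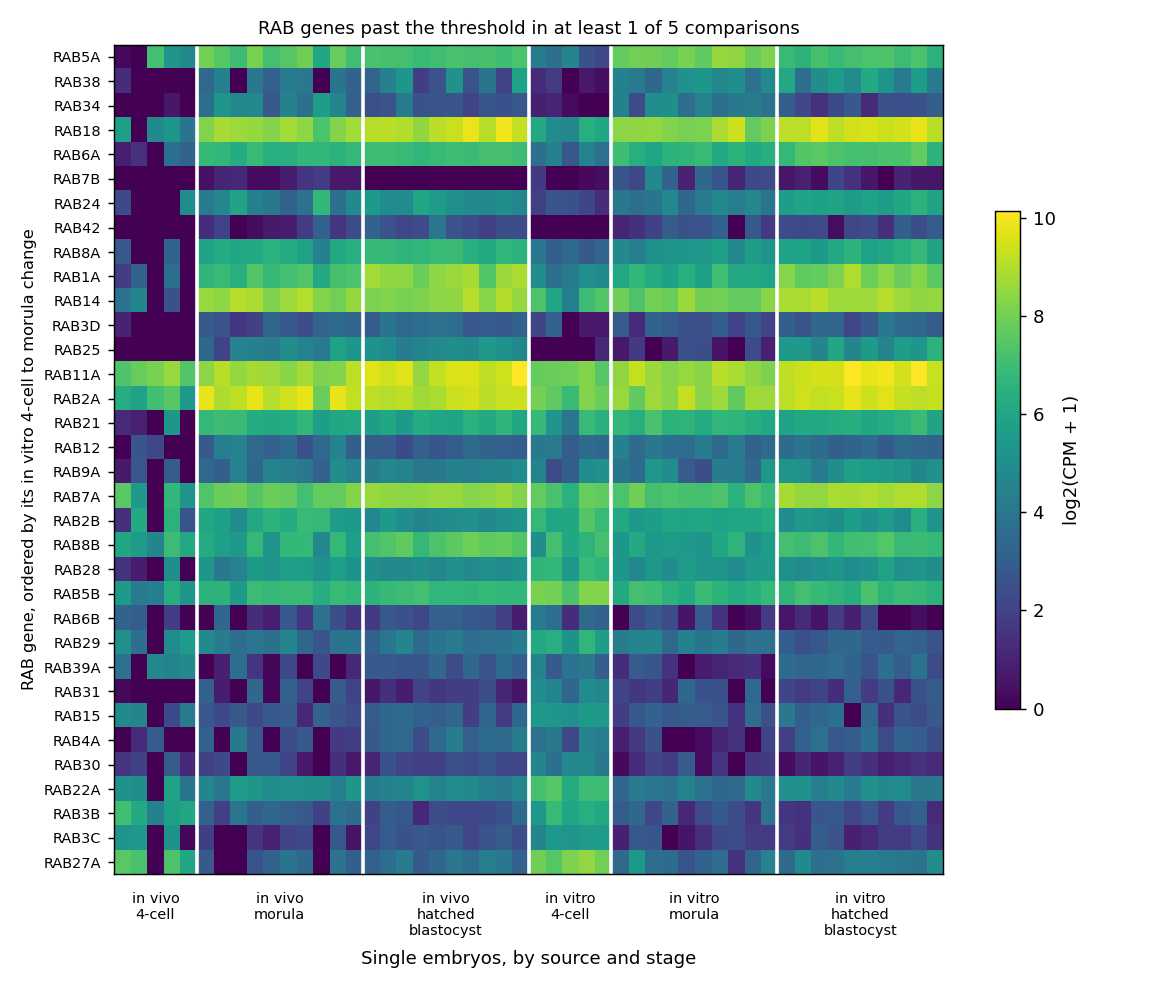
Level, as log2(CPM + 1) in colour, of the 34 RAB genes called in at least 1 of 5 comparisons (rows, ordered by their in vitro change from 4-cell to morula) in each of 50 embryos (columns, grouped by source and stage). Upper rows brighten from 4-cell to morula in both sources, and the lowest rows, among them RAB27A, RAB3C and RAB3B, dim from the in vitro 4-cell embryos on.

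Of the early secretory pathway, RAB1A, which moves cargo from the endoplasmic reticulum to the Golgi, rose at every step in both sources. RAB1A (chromosome 3, 76837673 to 76868156, Sscrofa11.1) stood at 2.60, 8.27, 0, 12.3 and 0 CPM in in vivo 4-cell embryos A1 to E1. It was 68.3 to 167 CPM (median 128) in in vivo morulae and 168 to 465.8 CPM (median 374) in in vivo hatched blastocysts. The 3 in vivo stages did not overlap, and the changes were 5.17 ± 0.55 (SE, adjusted p = 2.49e-07) and then 1.5 ± 0.20 (adjusted p = 2.53e-06). In vitro it was 30.7, 12.5, 16.5, 33.2 and 27.5 CPM in 4-cell embryos A1 to E1, 54.5 to 136 CPM in morulae and 192 to 490 CPM in hatched blastocysts. Here too the stages did not overlap, with changes of 1.69 ± 0.27 (adjusted p = 1.14e-05) and 1.84 ± 0.18 (adjusted p = 4.08e-09). Its close paralog RAB1B averaged under 1 CPM in all groups and was not called.

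RAB2A, a RAB of the compartment between endoplasmic reticulum and Golgi, was 43.1 to 180 CPM in in vivo 4-cell embryos and 225 to 902 CPM in in vivo morulae, without overlap, a rise of 2.83 ± 0.40 (adjusted p = 9.80e-06). In vitro it averaged 221 ± 71.9, 367 ± 114 and 667 ± 112 CPM along the 3 stages and neither step passed the threshold. RAB2B, its Golgi paralog, fell from morula (30.8 to 115 CPM) to hatched blastocyst (23.9 to 42.9 CPM) in vivo (−1.07 ± 0.21, adjusted p = 0.000412), with overlapping groups. RAB2B overlaps TOX4 in the RefSeq annotation of Sscrofa11.1, and reads of overlapping genes cannot be told apart without strand. Further on this is given with only some of the members it holds for. RAB35 overlaps the protein-coding gene BICDL1. RAB18, RAB7A, RAB15, RAB5B and RAB33B each overlap an annotated gene that is not protein-coding.

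RAB6A, which acts in traffic out of and back to the Golgi, stood at 0.813, 1.72, 0, 12.0 and 8.68 CPM in in vivo 4-cell embryos and at 78.1 to 116 CPM in the morulae. In vitro it went from 12.6, 21.1, 5.81, 22.1 and 12.9 CPM to 62.4 to 128 CPM. In neither source did the stages overlap, and the rises were 4.77 ± 0.50 (adjusted p = 2.04e-07) and 2.62 ± 0.27 (adjusted p = 2.70e-08). RAB18, known from the endoplasmic reticulum and from lipid droplets, was 53.2, 0, 27.2, 38.9 and 13.8 CPM in in vivo 4-cell embryos and 154 to 453 CPM in in vivo morulae. Its in vitro levels were 25.9 to 84.1 CPM and 211 to 666 CPM, again without overlap. It rose by 4.45 ± 0.66 (adjusted p = 1.69e-05) and 2.74 ± 0.29 (adjusted p = 4.15e-08), and averaged 620 ± 191 CPM in vivo and 679 ± 121 CPM in vitro in the hatched blastocysts. RAB30, a Golgi RAB, fell in vitro from 12.1 to 26.7 CPM to 0 to 6.51 CPM (−3.02 ± 0.44, adjusted p = 3.97e-06); it overlaps PRCP. RAB33B, a Golgi RAB tied to autophagy, had group means of 6.64 to 17.0 CPM and RAB33A of 0 to 0.790 CPM, and neither was called.

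RAB14, which links the Golgi and early endosomes, had the largest in vivo rise of the family on the log2(CPM + 1) scale, which holds back genes near 0 such as RAB25. RAB14 (chromosome 1, 261228112 to 261256913) was 13.7, 24.1, 0, 4.94 and 0 CPM in in vivo 4-cell embryos A1 to E1, and its lowest, median and highest values in in vivo morulae were 257, 376 and 522 CPM. All morulae lay far above all 4-cell embryos. The change was 6.34 ± 0.62 (adjusted p = 7.71e-08). In vitro the 4-cell embryos already held 157, 62.0, 19.6, 122 and 168 CPM and the morulae 160 to 392 CPM (median 244), so the groups touched, with a change of 1.54 ± 0.36 (adjusted p = 0.00087).

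Of the early endosomal RABs, RAB5A, which drives fusion of early endosomes, rose most in vitro on this scale. RAB5A (chromosome 13, 6905302 to 6940165; it overlaps PP2D1) stood at 18.2, 12.3, 23.7, 4.83 and 3.59 CPM in in vitro 4-cell embryos and at 205, 251 and 371 CPM (lowest, median and highest) in in vitro morulae. All morulae were above all 4-cell embryos, and the rise was 4.55 ± 0.32 (adjusted p = 1.42e-10). It then fell to 91.0 to 163 CPM in in vitro hatched blastocysts, again without overlap (−1.02 ± 0.14, adjusted p = 1.88e-06). In vivo the 4-cell embryos held 0.163, 0, 140, 38.6 and 27.8 CPM, with C1 far above the others and inside the range of the morulae (65.7 to 266 CPM). The in vivo change of 3.90 ± 0.88 did not pass (adjusted p = 0.00122), and it passed without C1 (4.81, adjusted p = 5.20e-05), without D1 (4.36, adjusted p = 0.000958) and with the filter of over 1 CPM in at least 3 embryos (adjusted p = 0.00072).

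Its paralogs gave other values. RAB5B was 277, 260, 151, 311 and 307 CPM in in vitro 4-cell embryos and 71.7 to 143 CPM in in vitro morulae, without overlap, a fall (−1.39 ± 0.23, adjusted p = 1.70e-05). In vivo RAB5B was 17.4 to 80.3 CPM and then 45.3 to 125 CPM, a change of 1.43 ± 0.39 that was not called (adjusted p = 0.00513). RAB5C averaged 13.5 to 33.8 CPM over the 6 groups and was not called. All 3 encode early endosomal RAB5 proteins.

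RAB21, which sorts integrins at early endosomes, was 1.30, 0.908, 0, 41.0 and 0 CPM in in vivo 4-cell embryos and 50.5 to 125 CPM in in vivo morulae. D1 alone came near the morulae, and the groups did not overlap (4.89 ± 0.66, adjusted p = 4.86e-06). In vitro RAB21 was 110, 37.8, 15.7, 114 and 86.7 CPM and then 66.6 to 150 CPM, overlapping and not called. RAB22A and RAB31, close paralogs of the early endosome and of traffic between Golgi and endosome, both fell in vitro. RAB22A went from 145, 177, 75.8, 124 and 122 CPM to 9.20 to 26.9 CPM, without overlap (−3.02 ± 0.28, adjusted p = 5.50e-09). RAB31 went from 8.96 to 30.5 CPM to 0 to 10.1 CPM, with overlap (−2.63 ± 0.54, adjusted p = 0.000214). In vivo, RAB22A averaged 27.8 ± 21.6 CPM at the 4-cell stage and 31.5 ± 9.66 CPM in morulae, and RAB31 was above 0 in 1 of 5 4-cell embryos (0.163 CPM, which is 1 read) and averaged 3.85 CPM in morulae. Neither was called by limma, while DESeq2 called RAB31 higher in in vivo morulae (6.13, adjusted p = 0.000511).

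RAB4A, which returns cargo quickly from early endosomes to the surface, fell and rose again in vitro. It was 13.0, 16.0, 3.63, 22.5 and 19.1 CPM in 4-cell embryos, 0 to 4.79 CPM in morulae and 2.75 to 12.8 CPM in hatched blastocysts, with changes of −2.79 ± 0.49 (adjusted p = 3.59e-05) and 1.92 ± 0.36 (adjusted p = 7.95e-05). Adjacent stages overlapped in both steps. RAB15, another RAB of early and recycling endosomes, fell in vitro from 34.4 to 45.6 CPM to 1.84 to 11.4 CPM, without overlap (−2.72 ± 0.32, adjusted p = 1.76e-07).

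**Figure D3:**
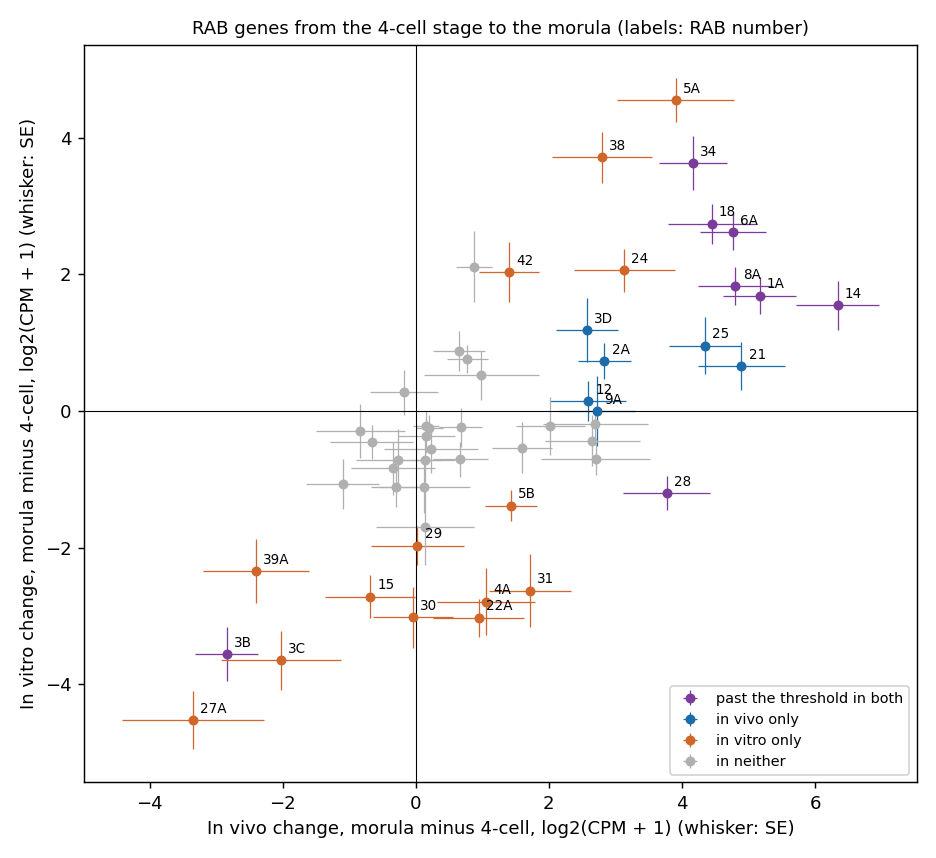
Change from 4-cell embryo to morula, in log2(CPM + 1) with its SE as whiskers, in vivo (x axis) against in vitro (y axis) for the 53 RAB genes tested in both, coloured by the source in which they were called and labelled by RAB number where called. RAB34, RAB18, RAB6A, RAB8A, RAB1A and RAB14 rose in both, RAB3B fell in both, and RAB28 lies at 3.77 in vivo and −1.20 in vitro.

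Of the late endosomal and lysosomal RABs, RAB7A, the RAB of late endosomes and lysosomes, rose in vitro from 87.4, 149 and 247 CPM (lowest, median and highest) in morulae to 334, 451 and 498 CPM in hatched blastocysts. The groups did not overlap, and the change was 1.57 ± 0.15 (adjusted p = 1.72e-09). In vivo it was 137 to 304 CPM and then 309 to 390 CPM, also without overlap, with a change of 0.76 ± 0.15 (adjusted p = 0.000263) that was under the size threshold. RAB7B, which works between late endosomes and the Golgi, fell in vitro from 1.001 to 28.3 CPM to 0 to 3.30 CPM (−1.75 ± 0.39, adjusted p = 0.00066). In vivo RAB7B was above 0 in all 10 morulae, at 0.25 to 2.39 CPM, and at 0 in all 10 hatched blastocysts. Taking 3 reads over the group as the floor, it was at least 13.1-fold lower in in vivo hatched blastocysts than in in vivo morulae, and at least 13.0-fold lower there than in in vitro hatched blastocysts (0 to 3.30 CPM), though neither was called on the log2(CPM + 1) scale. On recovered reads its in vivo fall from the morula was called by edgeR (adjusted p = 0.00021) and DESeq2 (adjusted p = 8.39e-05), and it was also called with a pseudocount of 0.1 (adjusted p = 4.43e-06). RAB7B was also called lower in in vivo than in in vitro hatched blastocysts by edgeR (adjusted p = 0.000165), by DESeq2 (adjusted p = 5.86e-05) and with a pseudocount of 0.1 (adjusted p = 5.95e-05).

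RAB9A, which returns cargo from late endosomes to the Golgi, rose in vivo from 0 to 7.03 CPM to 7.5 to 31.4 CPM, narrowly without overlap (2.72 ± 0.58, adjusted p = 0.000697). In vitro it was 4.18 to 33.8 CPM in 4-cell embryos and 4.38 to 41.4 CPM in morulae, with a change of 0.00 ± 0.51. RAB12, which steers receptors to lysosomes, rose in vivo from 0 to 5.55 CPM to 4.93 to 22.6 CPM (2.59 ± 0.57, adjusted p = 0.000989), with overlap. RAB24, tied to autophagy, rose at both steps in vitro. It was 1.5 to 5.50 CPM in 4-cell embryos, 9.76 to 26.3 CPM in morulae and 46.1 to 92.8 CPM in hatched blastocysts, with no overlap between stages and changes of 2.06 ± 0.31 (adjusted p = 6.20e-06) and 1.70 ± 0.18 (adjusted p = 1.63e-08). The in vivo changes of RAB24 were 3.13 ± 0.76 (adjusted p = 0.00219) and 0.58 ± 0.33 (adjusted p = 0.214), and neither was called. RAB24 overlaps NSD1. RAB29, which recruits the kinase LRRK2, fell at both in vitro steps, from 68.6 ± 26.7 to 16.3 ± 5.06 and 7.15 ± 1.72 CPM, with changes of −1.97 ± 0.29 (adjusted p = 3.98e-06) and −1.06 ± 0.21 (adjusted p = 0.000154).

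RAB34, which acts in the positioning of lysosomes and in ciliation, peaked in the morula in both sources. RAB34 (chromosome 12, 44951989 to 44956458) was 0 CPM in in vivo 4-cell embryos A1, B1, C1 and E1 and 0.570 CPM in D1, and it was 6.23, 22.2 and 49.5 CPM (lowest, median and highest) in in vivo morulae. It went back to 3.08 to 17.2 CPM in in vivo hatched blastocysts. In vitro it was 0.876, 1.10, 0.242, 0 and 0 CPM, then 4.17 to 31.96 CPM and then 1.32 to 7.44 CPM. The 4-cell embryos lay below all morulae in each source (4.16 ± 0.51, adjusted p = 1.73e-06, and 3.63 ± 0.40, adjusted p = 6.25e-08), and morulae and hatched blastocysts overlapped, with changes of −1.56 ± 0.34 (adjusted p = 0.000866) and −1.73 ± 0.31 (adjusted p = 4.62e-05).

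Of RAB32 and RAB38, a pair known for lysosome-related organelles such as melanosomes, RAB38 passed in vitro. RAB38 rose from 1.4, 2.42, 0, 0.630 and 0.299 CPM in in vitro 4-cell embryos to 9.39, 23.5 and 40.6 CPM (lowest, median and highest) in in vitro morulae, without overlap (3.71 ± 0.37, adjusted p = 1.57e-08). RAB32 was 3.80 ± 1.0 CPM and then 2.55 ± 1.45 CPM there, and was not called. In vivo RAB32 was at 0 in all 5 4-cell embryos and averaged 2.69 CPM in morulae, at least 20.4-fold higher, and was not called on the log2(CPM + 1) scale (adjusted p = 0.0068). It was called with a pseudocount of 0.1 (4.12, adjusted p = 0.000827) and by DESeq2 (6.31, adjusted p = 3.09e-05). RAB38 differed widely between embryos of one group, from 2.62 to 58.8 CPM in in vivo hatched blastocysts.

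Of the recycling and exocytic RABs, RAB8A, which carries cargo to the plasma membrane and into cilia, rose between 4-cell embryo and morula in both sources. It was 6.18, 0, 0, 8.36 and 0 CPM in in vivo 4-cell embryos and 20.4 to 89.2 CPM in in vivo morulae, and 6.30 to 14.7 CPM and then 19.0 to 54.4 CPM in vitro. Neither pair overlapped, with rises of 4.80 ± 0.57 (adjusted p = 9.82e-07) and 1.83 ± 0.27 (adjusted p = 5.27e-06); RAB8A overlaps HSH2D. Its paralog RAB8B did not pass there and rose at the next step instead. RAB8B went from 24.7, 63.9 and 108 CPM (lowest, median and highest) in in vivo morulae to 109, 181 and 242 CPM in in vivo hatched blastocysts (1.45 ± 0.24, adjusted p = 5.09e-05). In vitro it went from 36.3 to 95.8 CPM to 106 to 178 CPM (1.35 ± 0.17, adjusted p = 1.82e-07), and all hatched blastocysts lay above all morulae in each source.

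RAB11A, the RAB of the recycling endosome, averaged 241 ± 90.5, 401 ± 92.9 and 724 ± 201 CPM along the in vivo stages and 235 ± 46.4, 403 ± 105 and 812 ± 201 CPM along the in vitro stages. The last in vitro step passed, at 1.01 ± 0.16 (adjusted p = 8.80e-06), only just over the size threshold, and the last in vivo step, at 0.83 ± 0.18 (adjusted p = 0.00119), did not. RAB11B averaged 2.69 to 10.9 CPM and was not called. RAB10, a RAB of basolateral and insulin-regulated transport, averaged 151 to 360 CPM over the groups and RAB35, which acts in endocytic recycling and in cytokinesis, 12.9 to 44.6 CPM; RAB13, a RAB of tight junctions, averaged 0.319 to 11.2 CPM. None of these 3 was called by limma. RAB13, at 0.319 CPM in in vivo 4-cell embryos and 5.16 CPM in in vivo morulae on average, was called higher there by DESeq2 (3.67, adjusted p = 0.000342) and with a pseudocount of 0.1 (4.15, adjusted p = 0.000546).

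RAB25, the epithelial member of the RAB11 family, passed at different steps in the sources. RAB25 (chromosome 4, 93961136 to 93970742) was at 0 in all 5 in vivo 4-cell embryos and at 3.14, 20.8 and 56.2 CPM (lowest, median and highest) in in vivo morulae, at least 181-fold higher on average than the floor of 3 reads over the 4-cell group. The in vivo change was 4.35 ± 0.54 (adjusted p = 2.08e-06). In vitro it was 0 CPM in 4-cell embryos A1 to D1 and 1.20 CPM in E1, and 0, 0.762 and 4.51 CPM in morulae, which was not called (0.96 ± 0.42, adjusted p = 0.0553). The in vitro rise came at the next step, to 22.3, 43.4 and 93.8 CPM in hatched blastocysts, all of them above all in vitro morulae (4.21 ± 0.35, adjusted p = 2.46e-10), whereas the in vivo hatched blastocysts, at 19.0 to 42.4 CPM, lay within the range of the in vivo morulae (0.56 ± 0.32, adjusted p = 0.22). Tested directly, the first-step change of RAB25 differed between the sources by 3.39 (in vivo minus in vitro), which was not called. It was called with the filter of over 1 CPM in at least 3 embryos (adjusted p = 0.000609). The summed level of the 10 trophectoderm markers was 1631 to 5038 CPM in in vivo and 1003 to 2271 CPM in in vitro morulae, and their part in the RAB25 result was not tested. The part of the RNA quality differences that the study reported between morulae of the sources was not tested either. In whole embryos, fewer cells with a transcript and less transcript per cell cannot be told apart.

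Of the RABs of regulated secretion, RAB27A, which docks secretory granules and is known from mouse oocytes for cortical granule release, had the largest in vitro fall of the family on the log2(CPM + 1) scale. RAB27A (chromosome 1, 116532816 to 116606477) was 249, 178, 283, 367 and 250 CPM in in vitro 4-cell embryos A1 to E1 and 1.84, 10.7 and 41.7 CPM (lowest, median and highest) in in vitro morulae. No morula came near the 4-cell embryos, and the change was −4.52 ± 0.42 (adjusted p = 6.85e-09). The highest of these morulae was B2, the one with 2352 CPM of maternal transcripts, and without it the call held (−4.73). In vivo RAB27A was 189, 149, 0, 158 and 68.0 CPM in 4-cell embryos and 0 to 14.6 CPM in morulae. Only C1, at 0, lay within the morulae. The in vivo change of −3.34 ± 1.07 did not pass (adjusted p = 0.0153) and passed without C1 (−4.76, adjusted p = 5.13e-05). RAB27B averaged 0.442 to 3.11 CPM over the groups and was not called.

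The RAB3 genes, which act in regulated exocytosis, split. RAB3B fell in both sources, from 136, 73.2, 20.9, 53.6 and 66.2 CPM to 2.79 to 14.98 CPM in vivo and from 42.1, 115, 62.5, 81.1 and 70.0 CPM to 1.25 to 13.7 CPM in vitro. The groups did not overlap, with changes of −2.84 ± 0.48 (adjusted p = 6.89e-05) and −3.56 ± 0.39 (adjusted p = 7.41e-08). RAB3C fell in vitro from 23.3, 41.98, 38.5, 47.1 and 47.5 CPM to 0 to 6.0 CPM, without overlap, with a change of −3.65 ± 0.44 (adjusted p = 2.10e-07). In vivo RAB3C was 39.2, 41.5, 0, 36.1 and 0.147 CPM at the 4-cell stage and 0 to 5.96 CPM in morulae, not called. RAB3D rose in vivo from 0.976 CPM in A1 and 0 CPM in the other 4 embryos to 2.02 to 10.0 CPM, by 2.58 ± 0.47 (adjusted p = 0.000155), and RAB3A was not called, with group means of 0.495 to 4.79 CPM.

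**Figure D4:**
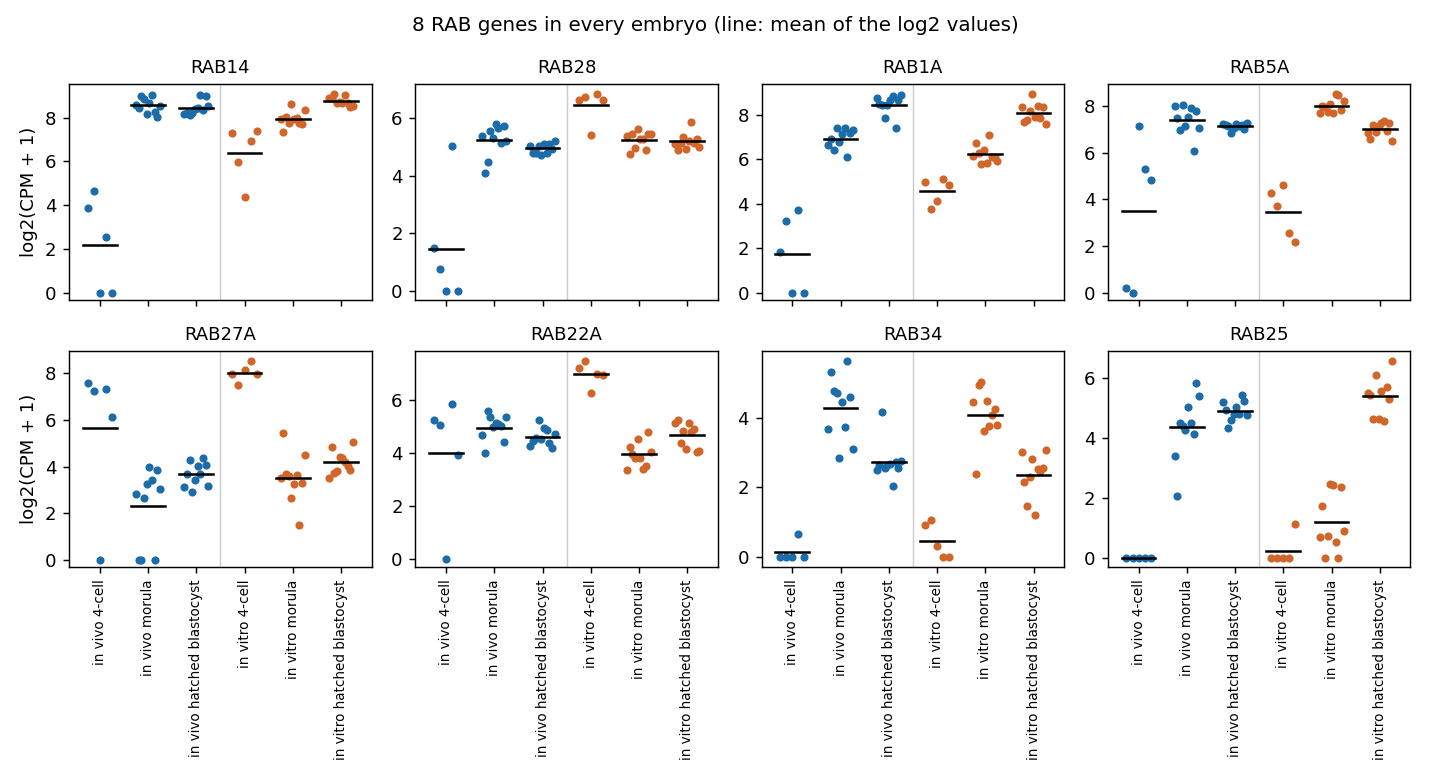
Level of 8 RAB genes in every embryo (points), as log2(CPM + 1) (y axis), in the 6 groups of source and stage (x axis), with the mean of the log2 values as a line. RAB25 is up in in vivo morulae and only in hatched blastocysts in vitro, RAB34 peaks in the morula in both sources, and RAB27A drops from the 4-cell embryos except for in vivo 4-cell embryo C1, which is at 0.

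Of the remaining members that were called, RAB28, a RAB tied to cilia and to photoreceptors in human retinal disease, went in opposite directions. RAB28 (chromosome 8, 8870795 to 9125253) was 1.79, 0.706, 0, 31.7 and 0 CPM in in vivo 4-cell embryos and 15.9 to 54.0 CPM in in vivo morulae, and D1 lay within the morulae (3.77 ± 0.65, adjusted p = 9.10e-05). In vitro it was 97.8, 105, 41.9, 114 and 97.5 CPM and then 26.1 to 48.1 CPM, a fall (−1.20 ± 0.25, adjusted p = 0.000221), with C1 within the morulae. Morulae averaged 38.7 ± 12.6 CPM in vivo and 37.6 ± 7.04 CPM in vitro (SD, n = 10 each). At the 4-cell stage all in vitro embryos were above all in vivo ones. RAB39A fell and rose in vitro, from 6.37 to 22.3 CPM to 0 to 6.78 CPM and back to 4.10 to 13.6 CPM (−2.34 ± 0.47, adjusted p = 0.000165, and 1.96 ± 0.34, adjusted p = 3.69e-05); it overlaps SLC35F2. RAB42 was at 0 in all in vitro 4-cell embryos and at 0 to 8.27 CPM in in vitro morulae, at least 29.3-fold higher on average (2.03 ± 0.44, adjusted p = 0.000395). In vivo it was likewise at 0 in all 5 4-cell embryos and at 0 to 7.81 CPM in morulae, at least 16.9-fold higher on average, which limma did not call (adjusted p = 0.016) and DESeq2 did (6.05, adjusted p = 0.00017). RAB39B, RAB40B and RAB9B stayed under 1 CPM on average in every group, RAB40C averaged 1.80 to 8.03 CPM, and none of these was called. RAB3IL1, the exchange factor kept by the symbol rule, rose in vitro from 0 to 1.93 CPM to 10.0 to 217 CPM (5.02 ± 0.52, adjusted p = 3.12e-08).

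The test of whether the change from 4-cell embryo to morula differed between the sources called 7 of 57 members, all higher in vivo, beside 2.80% of all genes higher and 0.372% lower. The difference of the changes, in vivo minus in vitro, was 4.98 ± 0.70 for RAB28 (adjusted p = 9.45e-06), 4.80 ± 0.75 for RAB14 (adjusted p = 3.87e-05) and 4.34 ± 0.87 for RAB31 (adjusted p = 0.000619). It was 4.23 ± 0.77 for RAB21 (adjusted p = 0.000244), 3.97 ± 0.76 for RAB22A (adjusted p = 0.000423), 3.48 ± 0.62 for RAB1A (adjusted p = 0.000193) and 2.82 ± 0.44 for RAB5B (adjusted p = 3.58e-05). In all 7 the in vivo 4-cell mean was the lower of the 4-cell means. For RAB28, RAB31, RAB22A, RAB1A and RAB5B every in vivo 4-cell embryo lay below every in vitro one, while for RAB14 and RAB21 the groups overlapped. The median difference was 1.18 over the members and 0.39 over all genes. Over all genes it was 0.76 with over 1 CPM in at least 3 embryos and 0.99 with a pseudocount of 0.1. No members' median is given for these settings. The in vivo 4-cell libraries with their fewer genes enter every one of these values, and the part of RNA quality in them was not tested. By the edgeR quasi-likelihood test only RAB14 was called (5.04, adjusted p = 0.00016), and with values rescaled to plain library totals only RAB14 (4.40) and RAB28 (4.62).

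**Figure D5:**
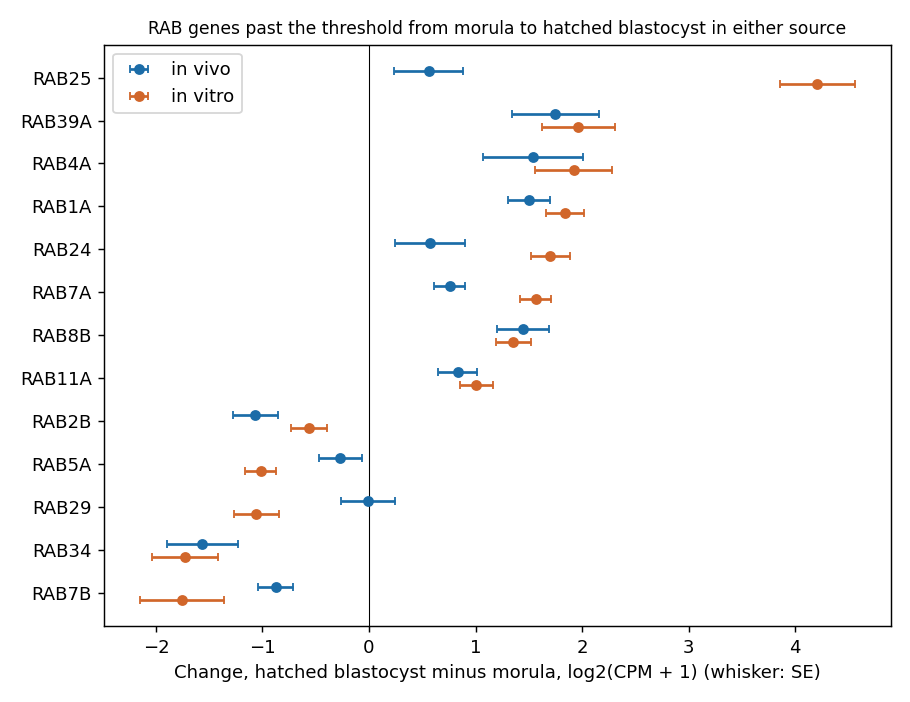
Change from morula to hatched blastocyst, in log2(CPM + 1) with its SE as whiskers (x axis), in vivo and in vitro for the 13 RAB genes called in either source (y axis). RAB25 stands apart, at 0.56 in vivo and 4.21 in vitro, and RAB34 is negative in both.

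For the step from morula to hatched blastocyst the same test called 0 members higher and 1 lower, beside 2.70% and 1.79% of all genes. The one was RAB25, whose in vivo change was smaller (−3.65 ± 0.49, adjusted p = 8.48e-07). Morulae of both sources enter this value, and the part of the RNA quality differences reported for them was not tested. By DESeq2 on recovered reads RAB2A was called lower too (adjusted p = 0.000662), which made 2. With limma 17 members had an unadjusted p under 0.05, again without a share of all genes to set beside it.

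Between hatched blastocysts of the 2 sources, differences are in vivo minus in vitro. RAB6B, a RAB6 paralog best known from brain, was 0.760, 5.26 and 7.69 CPM (lowest, median and highest) in in vivo hatched blastocysts and 0, 0.521 and 3.95 CPM in in vitro ones. The groups overlapped and the difference was 1.60 ± 0.32 (adjusted p = 0.000572). It was not called without embryos under 2 M reads (1.52, adjusted p = 0.00176), by the edgeR quasi-likelihood test (2.14, adjusted p = 0.00292), with no filter on low values (1.60, adjusted p = 0.00148), with a pseudocount of 0.1 (2.93, adjusted p = 0.00118) or with the replicate block (2.14, adjusted p = 0.0231), and was called by DESeq2 (2.17, adjusted p = 0.000489). RAB6A differed by −0.26 ± 0.12 (adjusted p = 0.142). RAB30 (1.07 ± 0.23, adjusted p = 0.00123) was just short of the threshold on the adjusted p alone. RAB29 (0.90 ± 0.19, adjusted p = 0.00114), RAB24 (−0.74 ± 0.16, adjusted p = 0.00113) and RAB20 (−0.94 ± 0.21, adjusted p = 0.00163) missed both the p and the size threshold. None of these was called by limma. DESeq2 called RAB30 (1.65, adjusted p = 8.66e-05) and RAB29 (adjusted p = 2.71e-05) higher and RAB20 (−1.77, adjusted p = 0.000273) lower in vivo, and edgeR called RAB29 (1.02, adjusted p = 0.000713). Without embryos under 2 M reads RAB30 (1.14, adjusted p = 0.000776) and RAB20 (−1.08, adjusted p = 0.000381) passed, and RAB30 also did with the filter of over 1 CPM in at least 3 embryos (adjusted p = 0.00052).

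The genes that serve RAB proteins moved in several directions. From 4-cell embryo to morula the median change was 1.81 in vivo and 1.38 in vitro for prenylation and recycling, 0.65 and −0.54 for exchange factors, −0.17 and −0.75 for GAPs, and 0.01 and −0.52 for effectors, beside 0.21 and −0.14 over all genes. With over 1 CPM in at least 3 embryos the medians over all genes were 0.79 and −0.19. Of 8 genes for prenylation and recycling, 3 rose and 0 fell from 4-cell embryo to morula in vivo, and 3 rose and 2 fell in vitro. That is 37.5% higher in each source and 25.0% lower in vitro, where over all genes 14.9% rose and 7.86% fell in vivo and 16.0% rose and 22.7% fell in vitro. RABGGTB, the catalytic subunit that adds the lipid anchor, rose by 7.56 ± 0.45 in vivo and 4.78 ± 0.37 in vitro, RABAC1, a prenylated RAB acceptor, by 5.20 ± 0.65 and 3.67 ± 0.35, and RABIF, a guanine nucleotide-releasing chaperone, by 5.02 ± 0.43 and 3.43 ± 0.31. GDI2, which recycles RABs from membranes, fell in vitro (−2.02 ± 0.18), as did the escort protein CHM (−1.96 ± 0.29). At the last step 0 of 8 passed in vivo, beside 5.81% of all genes higher and 3.14% lower. In vitro 2 rose (25.0%), CHML (1.36 ± 0.29) and GDI2 (1.06 ± 0.13), and 1 fell (12.5%), beside 9.98% and 10.2% of all genes.

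Of the GEFs, 7 of 42 rose and 1 fell in vivo from 4-cell embryo to morula, and 8 of 43 rose and 13 fell in vitro. The shares that rose, 16.7% and 18.6%, stood near the 14.9% and 16.0% of all genes, and the shares that fell were 2.38% and 30.2% against 7.86% and 22.7%. TRAPPC2, a subunit of the TRAPP complex that activates RAB1, rose by 7.73 ± 0.35 in vivo and 4.86 ± 0.33 in vitro, and TRAPPC2L by 6.06 ± 0.34 and 3.98 ± 0.37. DENND2D rose by 6.07 ± 0.54 in vivo, and RPGR, linked to the photoreceptor cilium, fell (−3.22 ± 0.42). In vitro MON1B, a partner in the activation of RAB7 (−3.94 ± 0.35), and MADD, an activator of RAB3 and RAB27 (−3.23 ± 0.44), fell. At the last step 1 of 44 rose and 1 fell in vivo, MON1A (1.97 ± 0.34) and RIN2 (−4.02 ± 0.31), an activator of RAB5, and 8 rose and 5 fell in vitro (18.2% and 11.4%, against 9.98% and 10.2% of all genes). There RIN2 (−4.11 ± 0.27), DENND5B (−2.39 ± 0.26) and MADD (−2.21 ± 0.37) fell, and RIN3 (1.90 ± 0.39), TRAPPC1 (1.73 ± 0.17) and TRAPPC5 (1.72 ± 0.30) rose most. None of 44 GEFs was called between hatched blastocysts, beside 2.20% of all genes higher and 2.07% lower in vivo.

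More GAPs fell than rose at the first step, 7 of 37 against 1 in vivo and 13 of 38 against 4 in vitro. The shares that fell were 18.9% and 34.2%, against 7.86% and 22.7% of all genes, and in vitro more genes of any kind fell than rose. RABGAP1 (−3.89 ± 0.42 in vivo, −4.16 ± 0.32 in vitro), TBC1D8 (−3.49 ± 0.62 and −3.82 ± 0.46) and TBC1D14, which acts on recycling endosomes in autophagy (−3.05 ± 0.49 and −3.44 ± 0.36), led the falls, and TBC1D13 rose (4.69 ± 0.49 and 3.26 ± 0.27). In vitro TBC1D19 (2.15 ± 0.43) and TBC1D22A (1.96 ± 0.35) rose as well. At the last step 5 of 37 rose and 0 fell in vivo (13.5% against 5.81% of all genes rose), with TBC1D8 (3.15 ± 0.33), TBC1D17 (1.93 ± 0.40) and TBC1D2 (1.79 ± 0.28) first, and 7 rose and 3 fell in vitro (18.9% and 8.11%, against 9.98% and 10.2% of all genes). There TBC1D8 (2.85 ± 0.34), TBC1D1, a GAP of insulin-regulated transport (2.28 ± 0.18), and EVI5 (1.92 ± 0.23) rose, and TBC1D22B (−1.48 ± 0.28), TBC1D13 (−1.17 ± 0.21) and TBC1D31 (−1.17 ± 0.23) fell. TBC1D16 (−2.06 ± 0.42) and TBC1D20, a GAP of RAB1 (−1.21 ± 0.15), were lower in in vivo than in in vitro hatched blastocysts. These were 2 of 37 GAPs (5.41%), beside 2.07% of all genes.

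Of the effectors, which bind the active form, 6 of 47 rose and 10 fell in vivo from 4-cell embryo to morula, and 7 of 47 rose and 14 fell in vitro. The shares that rose, 12.8% and 14.9%, stood near those of all genes (14.9% and 16.0%), and the shares that fell were 21.3% and 29.8% against 7.86% and 22.7%. SYTL5 (−6.25 ± 0.48 in vivo, −5.31 ± 0.47 in vitro) and SYTL3 (−6.09 ± 0.83 and −6.04 ± 0.58), synaptotagmin-like partners of RAB27, fell in both, and the motor MYO5C fell in vivo (−6.01 ± 0.48) and MYO5B in vitro (−4.32 ± 0.45). RAB11FIP4 (6.40 ± 0.43 and 4.71 ± 0.52), a RAB11 partner, rose most in both sources, beside RABEPK (5.31 ± 0.64) and MYO5A (5.02 ± 0.63) in vivo and RILPL1 (3.78 ± 0.39) and RAB11FIP1 (3.70 ± 0.31) in vitro. At the last step 3 of 46 rose and 4 fell in vivo, and 9 of 47 rose and 7 fell in vitro. This was 6.52% and 8.70% in vivo, against 5.81% and 3.14% of all genes, and 19.1% and 14.9% in vitro, against 9.98% and 10.2%. MICAL1 (1.92 ± 0.21), MYO5C (1.90 ± 0.29) and RAB11FIP5 (1.02 ± 0.21) rose in vivo and SYTL4 (−2.55 ± 0.43), RILPL1 (−1.64 ± 0.33) and RAB11FIP4 (−1.33 ± 0.28) fell. In vitro MYO5B (2.23 ± 0.34), APPL2 (2.18 ± 0.30) and RAB11FIP2 (1.95 ± 0.27) rose most and SYTL2 (−5.15 ± 0.41), RILPL1 (−4.01 ± 0.30) and SYTL4 (−3.63 ± 0.29) fell most. OSBPL1A (−1.43 ± 0.17), OPTN (−1.23 ± 0.16) and RAB11FIP2 (−1.03 ± 0.21) were lower in in vivo hatched blastocysts. These were 3 of 45 effectors (6.67%), beside 2.07% of all genes.

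Other settings ended some calls and made others, and edgeR and DESeq2 ran without in vivo 4-cell embryo B1. With edgeR, the in vivo first-step calls of RAB28, RAB21, RAB8A, RAB3D, RAB9A and RAB12 were lost, and the in vitro ones of RAB14, RAB28, RAB4A, RAB39A and RAB31. With DESeq2, RAB28 and RAB12 were lost in vivo and RAB14 in vitro, and DESeq2 gave no adjusted p for RAB21. In vivo DESeq2 gained RAB13, RAB31, RAB32 and RAB42, given above, and RAB38 (5.01, adjusted p = 0.0005), for 15 members higher in place of 13. With a pseudocount of 0.1, RAB7B joined RAB13 and RAB32 as a gain in vivo (3.08, adjusted p = 0.000717). In vitro RAB7B rose at the first step by DESeq2 (3.66, adjusted p = 6.63e-05), with a pseudocount of 0.1 (3.93, adjusted p = 0.000259) and with the filter of over 1 CPM in at least 3 embryos (adjusted p = 0.000828). RAB4A lost its in vitro last-step rise with edgeR (2.31, adjusted p = 0.00165). RAB34 lost its in vivo last-step call with no filter on low values, RAB2B without embryos under 2 M reads, and RAB7B its in vitro one under both of these settings. RAB11A lost its in vitro last-step call with plain library totals, with DESeq2 and without embryos under 2 M reads, a setting under which RAB17 was gained (1.41, adjusted p = 0.000109).

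Single 4-cell embryos decided several calls. In vivo RAB9A was lost without A1 (2.58), C1 (2.40) or E1 (2.40), with adjusted p from 0.00182 to 0.00289, and RAB12 without A1, D1 or E1 (2.35 each, adjusted p from 0.00381 to 0.0043). RAB23 was gained without A1 (3.37, adjusted p = 0.000423), RAB24 without E1 (4.01, adjusted p = 4.73e-05) and RAB39A, as a fall, without B1 (−3.31, adjusted p = 0.000665). In vitro RAB14 was lost without B1 (1.44, adjusted p = 0.00396) or C1 (1.04, adjusted p = 0.00185), and RAB28 without B1 (−1.13, adjusted p = 0.00114) or D1 (−1.10, adjusted p = 0.0013). RAB31 was lost without A1 (−2.51, adjusted p = 0.0011) or D1 (−2.53, adjusted p = 0.00106), RAB39A without A1 (−2.12, adjusted p = 0.00106) and RAB42 without any one of the 5 (2.03 each, adjusted p from 0.00132 to 0.0014). RAB7B (2.42, adjusted p = 0.000716) and RAB36 (−1.31, adjusted p = 0.00096) were gained without A1 and RAB35 (−1.43, adjusted p = 0.000977) without C1. Of the differences between sources, RAB31 was lost without in vivo C1 or E1 (4.33 each) or in vitro A1, B1, D1 or E1 (4.22 to 4.33), and RAB22A without in vitro A1 (3.91, adjusted p = 0.00103) or B1 (3.84, adjusted p = 0.00115). The number of differences called rose from 7 to 11 without in vivo 4-cell embryo D1.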

How the data were processed

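Single embryos were sequenced after Smart-seq2 preparation. Per the labels and the study's methods, the authors trimmed reads with Trim Galore, checked them with FastQC and MultiQC, aligned them to Sus scrofa 11.1 with HISAT2 and compared groups with edgeR. The counting tool, annotation and strand setting are not given in the sources used here. The deposited signal is CPM, read counts scaled by the authors to an effective library size. The tables' fold changes, p-values and false discovery rates were not used, nor was the table by sex. Values were whole multiples of 1 read (within 0.1 read) for 100% of values in every embryo, and 49 gave their depth. In vivo 4-cell embryo B1 was set aside by the rule on CPM per read.

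Groups came from the labels. Levels as log2(CPM + 1), where 1 or more of the embryos compared exceeded 0.5 CPM, were tested with limma 3.58.1 (trend) in R 4.3.3, with Benjamini-Hochberg adjustment over all genes. This was used in place of the count test of the study because the files hold CPM. The sources were compared by interaction terms. The test was checked on simulated data. Alternatives were a pseudocount of 0.1, no filter, over 1 CPM in at least 3 embryos, plain library totals, edgeR 4.0.16 and DESeq2 1.42.0 on recovered reads (leaving out the in vivo 4-cell embryo whose reads were not recovered), leaving out embryos, and a replicate block on title codes. In each comparison the members past the threshold were named, with 24 more named whatever their result, and of each list of RAB regulators the 3 with the largest change in each direction. Some regulators that this rule names are not reported here. The members and lists were chosen with earlier results of these data known. Per the study, each group came from several gilts or in vitro experiments, fewer than its embryos, so some embryos of a group shared one. Which ones is not given. The tests treat embryos as independent, so p-values measure the spread between these embryos and not between litters or cultures. Floors of 3 reads cover counting error only.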

Additional observations from a re-analysis of the deposited data

Results flagged for a closer look

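In 30 of 204 tests of a member in a group of 5 or 10 embryos, 1 embryo lay apart from the rest of its group. The cut-off used is passed about 1 time in 20, or 10.2 times here, only where values are normally spread. CPM values are skewed and often 0, and groups wholly at 0 are among the 204. The 30 can therefore not be read as an excess over 10.2. In 5 of the 30 every other embryo of the group was at 0, so that any reads at all set the embryo apart, and these 5 say little.

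Among in vivo 4-cell embryos, A1 stood above the others for RAB3D (0.976 CPM), RAB31 (0.163 CPM, 1 read) and RAB38 (1.46 CPM), all at 0 in the other 4. C1 stood above them for RAB4A (6.68 CPM) and RAB5A (140 CPM), D1 for RAB21 (41.0 CPM), RAB28 (31.7 CPM) and RAB34 (0.570 CPM, with the other 4 at 0), and E1 for RAB24 (29.7 CPM). Among in vitro 4-cell embryos, A1 was high for RAB7B (2.28 CPM), E1 for RAB25 (1.20 CPM, with the other 4 at 0), and C1 low for RAB28 (41.9 CPM).

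Among in vivo morulae, B2 was high for RAB4A (16.2 CPM) and RAB39A (11.7 CPM), and G1 was low for RAB8A (20.4 CPM) and RAB18 (154 CPM) and high for RAB42 (7.81 CPM). Among in vitro morulae, B2, with its high maternal sum of 2352 CPM, was high for RAB7A (247 CPM) and RAB27A (41.7 CPM). E2 was high for RAB2A (596 CPM) and RAB30 (6.51 CPM), and C2 for RAB7B (28.3 CPM) and RAB21 (150 CPM).

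Among in vivo hatched blastocysts, B4 was high for RAB34 (17.2 CPM) and E4 for RAB42 (14.9 CPM). Among in vitro hatched blastocysts, D3 was high for RAB1A (490 CPM) and E4 for RAB28 (56.6 CPM), both with under 2 M reads. G3 was high for RAB2B (85.3 CPM) and RAB24 (92.8 CPM), and C4 for RAB7B (3.30 CPM).

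The stage change differed between the sources by limma's interaction test for 8 members. From 4-cell embryo to morula the in vivo change exceeded the in vitro change by 4.98 for RAB28, 4.80 for RAB14, 4.34 for RAB31, 4.23 for RAB21, 3.97 for RAB22A, 3.48 for RAB1A and 2.82 for RAB5B, on the log2 scale. From morula to hatched blastocyst the difference was −3.65 for RAB25.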

How the results depend on the processing

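Of 146 counts of called members under an alternative, 126 kept within 1.5 times, 9 were lower and 11 higher, and of 696 changes of single members 619 kept their call, 77 lost it and 0 reversed. From 4-cell embryo to morula in vivo, edgeR called 7 members higher in place of 13 (1547 genes in place of 2962). From morula to hatched blastocyst in vivo, 1 member in place of 2 was lower with no filter and without embryos under 2 M reads, and edgeR and DESeq2 split the calls 2 higher to 3 lower. Between hatched blastocysts the members higher in vivo numbered 0 with a pseudocount of 0.1 and with no filter, 2 with over 1 CPM in 3 embryos and 3 by DESeq2, in place of 1, and those lower numbered 1 with a pseudocount of 0.1, by edgeR and without embryos under 2 M reads and 2 by DESeq2, in place of 0. Of the differences between sources in the first step, 4 were higher with a pseudocount of 0.1, 2 with plain library totals and 1 by edgeR, in place of 7. In the second step 1 was higher with plain totals in place of 0, and 2 were lower by DESeq2 in place of 1. Leaving out 1 embryo gave 12 to 13 higher and 1 to 2 lower in vivo, 8 to 10 higher and 10 to 13 lower in vitro, and 5 to 11 differences between sources. Plain totals moved the median over all genes by −0.12 from morula to hatched blastocyst in vitro, where RAB11A went from 1.01 to 0.58 and RAB8B from 1.35 to 0.93, under the size threshold (0.71 and 1.05 relative to the moved median). Plain totals divide the CPM values of each embryo by their sum over all genes. This sum was 0.784 to 1.075 M CPM in in vitro morulae and 1.055 to 1.267 M CPM in in vitro hatched blastocysts. The smaller changes of RAB11A and RAB8B follow from that division. The moved median does not measure the rescaling, as log2(CPM + 1) holds back low genes. Causes of the other differences between settings were not tested.

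Between hatched blastocysts 6 title codes occur in both sources, and 0 of these pairs had a residual correlation over 0.1 (−0.279 to 0.0617). What the codes stand for is not given, and these values cannot settle it. With the replicate block 0 members were higher and 0 lower. Over all genes, counts that moved by over 1.5 times were 577 lower in vivo at the last step against 1114 by DESeq2, 2068 higher in vitro against 1347 with plain totals, and 373 lower between hatched blastocysts against 618 by DESeq2. Genes whose first step was higher in vivo numbered 633, against 345 with plain totals and 304 by edgeR, and those lower 84, against 146 and, by DESeq2, 382. For the last step 579 were higher against 262 by edgeR. Depth limits what can be read of the 21 members that averaged at most 10 CPM in every group.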
